A study of Sus scrofa with 4 samples.

Results

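Among the cells of porcine pancreatic ductal organoids (PPDO), three-dimensional cultures grown from the ducts of the pig pancreas, a small number ranked highest by the summed signal of SPINK5, KLK7, DSG1, RDH12, PLA2G4E and TPRG1, several of them known from the upper layers of skin. These cells were selected on the 6 genes themselves, and all 6 were found in 10 of the 275 cells of PPDO 1 and 35 of the 241 cells of PPDO 2. A score was taken in each cell as the mean of ln(1 + UMIs per 10000) of the 6 genes, where a UMI (unique molecular identifier) marks 1 captured RNA molecule. The cells with the highest 4% of scores in each library were kept, without the cells that ranked in the highest 1% by the same kind of score of S100A8, S100A12, SPRP, CNFN and KRTDAP. The rule gave 275 cells in PPDO 1 and 241 in PPDO 2, in all 516 of 16222 filtered organoid cells, in a series of 32580 barcodes. They are called high-score cells below, and the cells removed by the second score are called late cells (89 and 73 cells).

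The series holds 4 libraries from sorted live pig cells, 2 of PPDO and 2 of dissociated primary pancreas. The PPDO lines came from 1 late postnatal and 1 adult pig, grown in an extracellular matrix with a medium that contained WNT3, R-spondin-1 and Noggin, and were sampled at different passages. Which library belongs to which animal is not given in the labels. Any difference between PPDO 1 and PPDO 2 therefore cannot be told apart from age, animal or passage. The primary samples came from a wild type and an INS-eGFP pig and were used here for cell counts with the same score and for the levels of a few genes.

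In stratified epithelium such as epidermis, dividing basal cells sit on a basement membrane that they hold through integrins and hemidesmosomes. Their daughters move upward, stop dividing, strengthen desmosomes, and finally build a cornified envelope of cross-linked proteins covered with lipids. Kallikreins such as KLK7 are serine proteases that cut desmosomal proteins, among them the cadherin DSG1, and SPINK5 encodes LEKTI, an inhibitor that restrains them. The pancreatic duct is a simple epithelium marked by KRT7, KRT8, KRT18, KRT19 and the chloride channel CFTR, and does not cornify.

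Because the score reads the RNA of the same cells that are described, the comparisons of high-score cells with other cells are descriptions, and no test was made on them. UMIs were summed over the cells of a group in each library and are given as CPM, UMIs per 1000000 UMIs of that group. A log2 ratio compares 2 such sums after 0.5 CPM was added to each. With 2 libraries, the agreement of PPDO 1 and PPDO 2 is the only replicate check. The groups of a ratio come from the same library and are paired. An exact permutation test of 2 against 2, which would ignore this pairing, could not give a two-sided p under 0.333.

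The score had no gap at its limit. It was 0 in 77.0% of the filtered cells of PPDO 1 and 69.1% of those of PPDO 2. The last cell inside the limit scored 0.317 in PPDO 1 and the first outside 0.316, and in PPDO 2 these were 0.666 and 0.664. In each library 73 and 72 cells lay within 10% of the limit, so the limit cut through a continuous range of scores. A fixed share of cells was taken, so the scores cannot show whether the high-score cells form a separate class. The limit itself differed between libraries, and the limit of PPDO 1 applied to PPDO 2 would have taken 516 cells, while the limit of PPDO 2 applied to PPDO 1 would have left 86. Of the late cells, 80 of 89 and 52 of 73 also lay in the highest 4% by the first score.

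**Figure D1:**
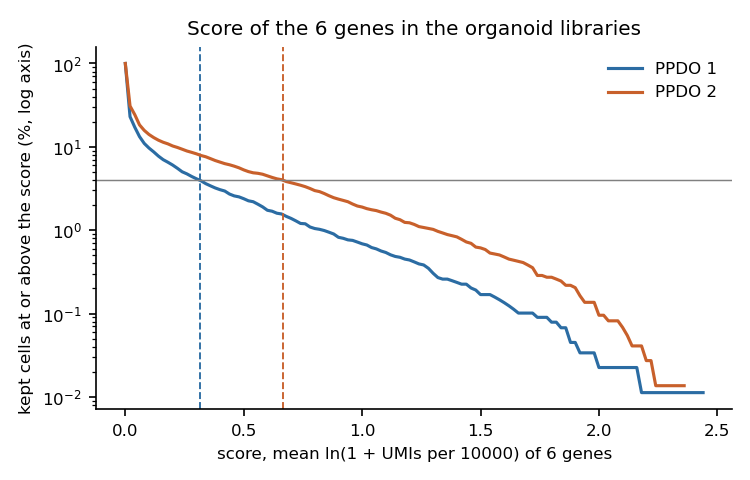
Share of filtered cells (%, log axis) at or above each value of the score (x axis, mean of ln(1 + UMIs per 10000) of 6 genes) in PPDO 1 and PPDO 2. The grey line marks 4%, the dashed lines the limits of 0.317 and 0.666, and both curves pass through their limit without a step.

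The high-score cells were about as deep as the other cells. Their median was 35170 UMIs in PPDO 1 and 36670 in PPDO 2, against 34112 and 34407 in the other cells. Their median mitochondrial share was 0.328% and 0.364%, against 0.399% and 0.390%. Median Scrublet doublet scores were lower than in the other cells, at 0.0371 against 0.0577 in PPDO 1 and 0.0302 against 0.0649 in PPDO 2, although the automatic limit of that tool called no doublet and so could not be used. The whole libraries held 366263520 and 316018482 UMIs, and 23 barcodes occurred in both PPDO libraries, none of them in a high-score cell.

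The 6 score genes are scattered over the genome. In the RefSeq annotation of the pig build Sscrofa11.1, matched by symbol because the count files carry no positions, SPINK5 is at chr2:149309482-149382286, DSG1 at chr6:115237836-115272944, RDH12 at chr7:91481238-91493838, PLA2G4E at chr1:129288727-129364034 and TPRG1 at chr13:126529961-126860676. KLK7 (chr6:55644627-55649000) lies inside the kallikrein cluster, between KLK6 and KLK8. The type I keratin gene KRT23, a marker of these cells that the score does not use, is at chr12:21526868-21547063.

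By construction the score genes stood far above the other cells. SPINK5 was at 221 CPM in the high-score cells of PPDO 1 and 1.06 CPM in the other cells, and at 219 and 1.24 CPM in PPDO 2. KLK7 was at 349 against 3.004 CPM in PPDO 1 and at 1888 against 30.6 CPM in PPDO 2. DSG1, the desmosomal cadherin, was at 33.3 against 0.933 CPM and at 137 against 2.07 CPM. KLK7 was higher in PPDO 2 in the other cells too, and the high-score cells of PPDO 2 were cut at a higher limit, so these levels are not compared between the libraries. RDH12, a reductase of retinal, was at 71.7 against 1.27 CPM in PPDO 1 and at 105 against 2.28 CPM in PPDO 2. PLA2G4E, a cytosolic phospholipase A2, was at 133 against 4.57 CPM and at 167 against 7.04 CPM. TPRG1, named as a gene regulated by p63, was at 222 against 5.11 CPM and at 335 against 9.63 CPM. The cells ranked in the next 4% by the score lay between the high-score cells and the rest for all 6 genes, which the rule favours.

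**Figure D2:**
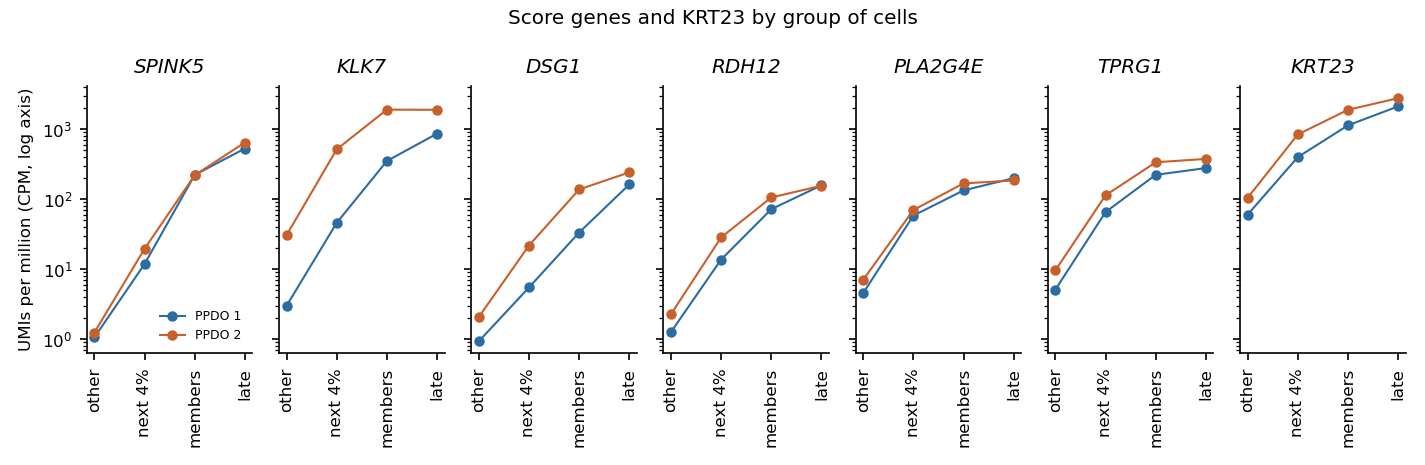
Level (CPM, log axis) of the 6 score genes and KRT23 in the other cells, the cells of the next 4% by the score, the high-score cells (members) and the late cells of PPDO 1 and PPDO 2, 1 point per library and group. The rule orders the first 3 groups by the mean of the score genes. KRT23 is not in the rule but was chosen as a marker with earlier results of these data known. It follows the same order from 59.9 and 104 CPM to 1126 and 1876 CPM.

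To describe each score gene without its own part in the choice, cells were also chosen on the other 5 genes. SPINK5 then was 48.2 times higher than in the other cells of PPDO 1 (157 against 3.25 CPM) and 77.0 times in PPDO 2 (184 against 2.39 CPM). KLK7 was 42.3 and 28.5 times higher, DSG1 26.6 and 47.6 times, and RDH12 36.6 and 32.3 times. PLA2G4E had the smallest ratios, with 19.7 and 16.8 times, and TPRG1 was 27.17 and 24.99 times higher. Each of the 6 genes was high in cells that the other 5 had picked, and at least 79.7% of the high-score cells were picked again for each gene. The 6 genes were chosen with earlier results of these data known. Both picks also share 5 genes and the same RNA, so nothing is read from these values.

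SPINK5, the first gene of the score, was found in a minority of the high-score cells. A SPINK5 UMI was present in 98 of 275 high-score cells of PPDO 1 (35.6%, exact 95% interval 29.98% to 41.61%) and in 65 of 241 of PPDO 2 (27.0%, 21.5% to 33.0%). In the other cells the share was 1.78% and 1.45% at nearly the same median depth. A KLK7 UMI was present in 59.6% (53.6% to 65.5%) and 90.5% (86.0% to 93.9%) of the high-score cells, against 3.99% and 13.7% of the other cells. The intervals cover counting error only. After each cell was thinned to 10000 UMIs, which left out 20 and 11 shallower high-score cells, SPINK5 was found in 29.8% and 21.7% of them, against 0.697% and 0.538% of the other cells. The thinned share of KLK7 was 48.2% and 86.5%, against 1.63% and 6.97%.

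The most regular of the 6 genes was TPRG1, present in 84.0% and 95.9% of the high-score cells. KRT23 was present in 84.4% and 95.4%. All 6 score genes were found together in 10 of 275 high-score cells of PPDO 1 and 35 of 241 of PPDO 2, and a single score gene carried the score in 13 cells and 1 cell. SPINK5 RNA was also unevenly spread, since 12 cells of PPDO 1 and 7 cells of PPDO 2 held 50% of all SPINK5 UMIs of the high-score cells. For KLK7 this took 15 and 32 cells, and for KRT23 42 and 46 cells. Single cells reached 59.8 and 104 UMIs of SPINK5 per 10000, while the median high-score cell had 0.

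Over all filtered organoid cells, a score gene was found in a larger share of the cells that carried another score gene than of those that did not. KLK7 was found in 30.9% of the cells with SPINK5 and 5.51% of those without in PPDO 1, and in 56.3% and 15.8% in PPDO 2. DSG1 was found in 27.4% and 3.36%, and in 49.5% and 5.36%. PLA2G4E was found in 63.3% of the cells with RDH12 and 5.76% of those without in PPDO 1, and in 70.7% and 7.42% in PPDO 2. Cells with a SPINK5 UMI were also deeper, with medians of 39425.5 against 34045 UMIs in PPDO 1 and 41457 against 34304 in PPDO 2. The part of depth in these overlaps was not tested. The 6 genes were put together with earlier results of these data known, so nothing is read from their overlaps.

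KRT23 was the marker given for these cells that the score did not use. Like the score genes, it was chosen with earlier results of these data known and is no outside check. It was at 1126 CPM in the high-score cells of PPDO 1, 396 CPM in the next 4% and 59.9 CPM in the other cells, and in PPDO 2 these levels were 1876, 834 and 104 CPM. The log2 ratio to the other cells was 4.22 and 4.16. Within the high-score cells KRT23 was at 1183 CPM in cells with a SPINK5 UMI and 1095 CPM in cells without in PPDO 1. In PPDO 2 these levels were 1830 and 1893 CPM. A cell without SPINK5 needed more of the other score genes to pass the limit, so no relation of the genes is read from this.

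The high-score cells also lay near each other when the 11 genes of the rule were left out. In 20 principal components of 2000 variable genes, 46.1% of the 15 nearest cells of a high-score cell in PPDO 1 were high-score cells, which made up 3.08% of the library, and in PPDO 2 the shares were 51.6% and 3.27%. A further 20.6% and 23.6% of the neighbours were cells of the next 4%, and 7.83% and 12.1% were late cells. Of the high-score cells, 29 in PPDO 1 and 6 in PPDO 2 had no neighbour of their own kind. High-score cells made up most of the neighbours for 134 of 275 high-score cells in PPDO 1 (48.7%) and 139 of 241 in PPDO 2 (57.7%), and the same RNA had chosen the cells.

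Across 12019 genes with at least 2 CPM in each library, without the rule genes, 362 genes were at least 2 times higher and 1020 at least 2 times lower in the high-score cells of both libraries, which is 3.01% and 8.49% of the genes compared. Since the cells were chosen on RNA of these same libraries, nothing is read from these shares. Lower genes were the larger side under this scaling, with 26.2% of the calls on the higher side. With TMM factors the split was 486 higher and 806 lower (37.6% higher), and with median-of-ratios factors 494 and 790 (38.5%). The median log2 ratio of all 12019 genes was -0.19 in PPDO 1 and -0.26 in PPDO 2, and -0.03 and -0.08 with TMM factors, and the levels of gene groups below are to be read against these medians. The ratios of the 2 libraries correlated across genes with a Pearson r of 0.8999, where genes are not independent replicates. Cells of the next 4% lay between the high-score and the other cells for 339 of the 362 higher and 835 of the 1020 lower genes.

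**Figure D3:**
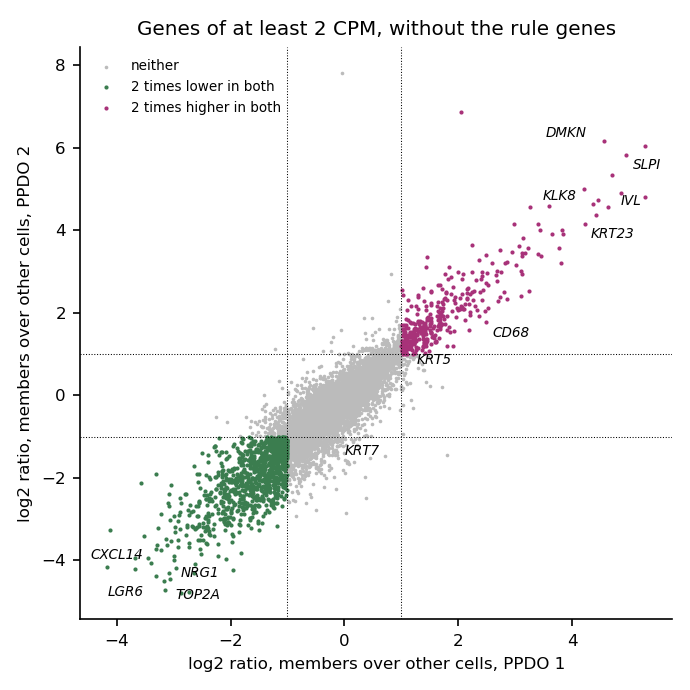
Log2 ratio of high-score cells over other cells in PPDO 1 (x axis) and PPDO 2 (y axis), 1 point per gene for 12019 genes, with the 362 genes at least 2 times higher and the 1020 at least 2 times lower in both libraries in colour. Most points follow 1 line, with SLPI, DMKN, IVL, KLK8 and KRT23 at the upper end and CXCL14, LGR6, NRG1 and TOP2A at the lower end.

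The 12 genes with a symbol and the largest ratios included components of the cornified envelope. The protease inhibitor SLPI was at 1108 CPM in the high-score cells and 35.2 CPM in the other cells of PPDO 1, and at 3965 and 68.96 CPM in PPDO 2. Involucrin (IVL), a first scaffold protein of the cornified envelope, was at 465 against 18.3 CPM and at 1140 against 47.5 CPM. The secreted epidermal proteins DMKN and SBSN are neighbours on chromosome 6. DMKN was at 181 against 7.23 CPM and at 1538 against 20.9 CPM, and 9 high-score cells of PPDO 1 held 50% of its UMIs. SBSN was at 32.1 against 0.616 CPM and at 92.9 against 2.64 CPM. The other genes of the 12 highest were C16orf89, PTPN22, KLK8, PLXDC2, KRT23, CYSRT1, ANXA9 and PLET1, with log2 ratios between 3.60 and 5.34. Of the 12 genes SBSN, C16orf89, PTPN22 and KLK8 were under 2 CPM in the other cells of at least 1 library and passed the filter through the cells in which they are high, so their place among the 12 follows in part from the filter. PLET1 rested on few cells of PPDO 1, where 2 of 275 cells held 50% of its UMIs.

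The kallikreins are the protease family of KLK7. Of 11 other kallikrein genes, KLK5, KLK8, KLK10 and KLK14 passed the filter on low levels. KLK8 and KLK14 were under 2 CPM in the other cells of at least 1 library and passed there through high-score or late cells. The filter thus bears on their place in the list, which is described without a count or median. KLK8 (chr6:55655447-55660586) was at 29.3 against 0.947 CPM and at 226 against 8.58 CPM. KLK10 (chr6:55673508-55677725) was at 36.4 against 3.35 CPM and at 472 against 19.3 CPM. KLK5, a trypsin-like protease that activates KLK7 in skin, was at 9.26 against 2.55 CPM and at 30.2 against 4.33 CPM. KLK14 was at 3.84 against 0.543 CPM and at 202 against 1.23 CPM, but 4 cells held 50% of its UMIs in PPDO 2 and 2 cells in PPDO 1. In PPDO 1, 50% of the UMIs lay in 9 high-score cells for KLK8, 10 for KLK10 and 13 for KLK5. These 4 kallikreins were at higher levels in the high-score cells of PPDO 2 than of PPDO 1, 2 groups that were cut at different score limits.

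The other 7 kallikreins were under the filter in at least 1 library, since it reads all filtered cells and these genes were low in most. KLK9 was at 18.2 against 0.776 CPM in PPDO 1 and 227 against 11.3 CPM in PPDO 2. KLK4, KLK6, KLK11, KLK12, KLK13 and KLK15 were at most at 2.76 CPM in the high-score cells of PPDO 1, and KLK11 reached 85.5 CPM in those of PPDO 2. These genes are related copies that lie side by side, and the assignment of reads among them was not tested.

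The high-score cells were divided by the presence of a KLK7 UMI as a description only. The rule used KLK7, and both KLK7 and KLK8 were higher in the upper score ranks. A sharing of reads among these neighbouring genes was not tested. KLK8 was at 52.6 CPM in the 164 cells of PPDO 1 with a KLK7 UMI and 0.660 CPM (3 UMIs) in the 111 cells without, and in PPDO 2 at 241 CPM in 218 cells and 33.1 CPM in 23 cells. KLK10 was at 55.1 against 13.4 CPM and at 495 against 181 CPM. KLK14 had 1889 UMIs in the cells of PPDO 2 with KLK7 and 0 in those without, where 3 UMIs would be the limit that a count of 0 allows. KRT23 was at 1155 against 1091 CPM and 1871 against 1937 CPM. Cells with KLK7 were shallower than cells without in PPDO 1 (medians of 30183 and 44704 UMIs) and deeper in PPDO 2 (37378 and 30003 UMIs). The other score genes are not compared here, because a cell without KLK7 needed more of them to pass the limit.

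The high-score cells were also divided by SPINK5, a gene that the rule used and whose level differed between score ranks, so the values are a description and cannot be told apart from score rank. KRT7 was at 224 CPM in cells with a SPINK5 UMI and 441 CPM in cells without in PPDO 1, and at 114 and 210 CPM in PPDO 2. KRT8 was at 815 against 1394 CPM and at 147 against 419 CPM. The laminin receptor subunit ITGA6 was at 474 against 787 CPM and at 210 against 364 CPM. Cells with SPINK5 were shallower, at a median depth of 29391 against 37551 UMIs per cell in PPDO 1, and 34997 against 37316 in PPDO 2. The basal keratins showed no common direction, with KRT5 at 10837 against 11786 CPM and 15220 against 15730 CPM, and KRT15 at 600 against 476 CPM and 260 against 282 CPM.

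Among 12 protease inhibitors that passed the filter 3 were higher and none lower, beside 3.01% and 8.49% of all genes. Besides SLPI these were the cysteine protease inhibitors CSTA and CST6. CSTA, a component of the cornified envelope, was at 2388 against 631 CPM in PPDO 1 and at 3448 against 689 CPM in PPDO 2. CST6 was at 80.5 against 16.6 CPM and at 214 against 16.6 CPM. SERPINB5 differed little, at 252 against 209 CPM and 267 against 210 CPM. The list as a whole had medians of 0.58 and 0.57, so most of its members moved far less than SLPI. Of 11 other epidermal proteases, the membrane proteases ST14 (matriptase), TMPRSS11E and TMPRSS13 were higher, TMPRSS11E at 545 against 189 CPM and 642 against 226 CPM. Against cells ranked 4 to 20% none of these proteases reached a factor of 2.

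Desmosomes are the junctions that DSG1 belongs to. Of 9 other desmosome genes 6 were at least 2 times higher in both libraries, namely DSG3, DSC2, DSP, PKP1, PKP3 and JUP, beside 3.01% of all genes, and none was lower. The cadherin DSC2 had the largest ratio, with 584 against 147 CPM in PPDO 1 and 927 against 212 CPM in PPDO 2. Desmoplakin (DSP), which ties desmosomes to keratin, was at 876 against 418 CPM and at 925 against 389 CPM. PERP was at 2420 against 1312 CPM and at 3180 against 1382 CPM, under the factor of 2 in PPDO 1. Against cells ranked 4 to 20% by the score in place of all other cells, 1 desmosome gene reached a factor of 2, and with the highest 8% of scores taken 2 did.

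Of 9 cornified envelope genes with at least 2 CPM also in the other cells of both libraries, 5 were higher and 1 was lower, beside 3.01% and 8.49% of all genes, and SBSN passed only through the cells in which it is high. TGM1, the transglutaminase that cross-links the envelope, was at 34.95 against 2.84 CPM and at 118 against 6.20 CPM. Envoplakin (EVPL) was at 33.8 against 7.15 CPM and at 40.6 against 7.66 CPM. The related enzyme TGM2 went the other way, with 1.28 against 14.6 CPM in PPDO 1 and 1.60 against 10.6 CPM in PPDO 2. IVL, DMKN and ANXA9 were the other higher genes.

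Keratins differed gene by gene. KRT10, a keratin of suprabasal epidermis, was at 285 against 99.4 CPM in PPDO 1 and at 354 against 61.8 CPM in PPDO 2. KRT80 was at 14.2 against 3.84 CPM and at 16.4 against 2.82 CPM. KRT4, a keratin of non-cornifying stratified epithelium, was at 29.2 against 13.2 CPM and at 18.4 against 3.32 CPM, but 3 cells of PPDO 1 and 2 of PPDO 2 held 50% of its UMIs, its level was higher in the next 4% (88.9 and 31.6 CPM), and its mean log2 ratio turned to -0.15 when the highest 2% were taken. KRT1, the partner of KRT10, had 1 UMI in the high-score cells of PPDO 1 and 201 CPM in those of PPDO 2, where 2 of 15 positive cells held 50% of the UMIs.

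The simple keratins of the duct did not move together with the score. KRT7 was at 364 against 393 CPM in PPDO 1 and at 185 against 396 CPM in PPDO 2. KRT8 was at 1189 against 1109 CPM and at 348 against 668 CPM, and KRT18 at 103 against 132 CPM and at 22.0 against 53.3 CPM. All 3 were higher in the next 4% than in the high-score cells of both libraries, with KRT7 at 679 and 512 CPM there. The late cells had the least, with KRT7 at 69.1 and 25.2 CPM.

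Lipid barrier genes make and process the lipids between the outer cells of skin. Of 35 genes that passed the filter 16 were higher in both libraries (FA2H passed only through the cells in which it is high) and 1, the ceramide synthase CERS4, was lower, beside 3.01% and 8.49% of all genes. The fatty acid binding protein FABP5 was at 14560 against 3542 CPM in PPDO 1 and at 18151 against 4241 CPM in PPDO 2. CERS3, the ceramide synthase of ultra-long chains, was at 41.0 against 3.41 CPM and at 85.8 against 7.57 CPM, and CERS4 at 1.77 against 7.70 CPM and 1.39 against 6.89 CPM. The chain-elongating enzyme ELOVL4 was at 27.0 against 2.99 CPM and at 83.7 against 4.23 CPM. ABCA12, which loads lipid into lamellar granules, was at 201 against 31.4 CPM and at 280 against 36.8 CPM. Other higher genes were, for example, CYP4F22, SULT2B1, ABHD5, PNPLA1, SMPD1 and DEGS2. The list medians were 0.93 and 1.01.

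The retinoid list, to which RDH12 is close by function, showed no common direction, with medians of 0.09 and -0.03. Of 15 genes, CRABP2 and RDH11 were higher and CYP26A1 was lower, the latter a share near the 8.49% of all genes (3.01% were higher). CRABP2, which carries retinoic acid to the nucleus, was at 1109 against 102 CPM and at 1783 against 111 CPM. CYP26A1, which degrades retinoic acid, had 4 and 2 UMIs in the high-score cells, or 0.394 against 4.13 CPM and 0.214 against 4.90 CPM.

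**Figure D4:**
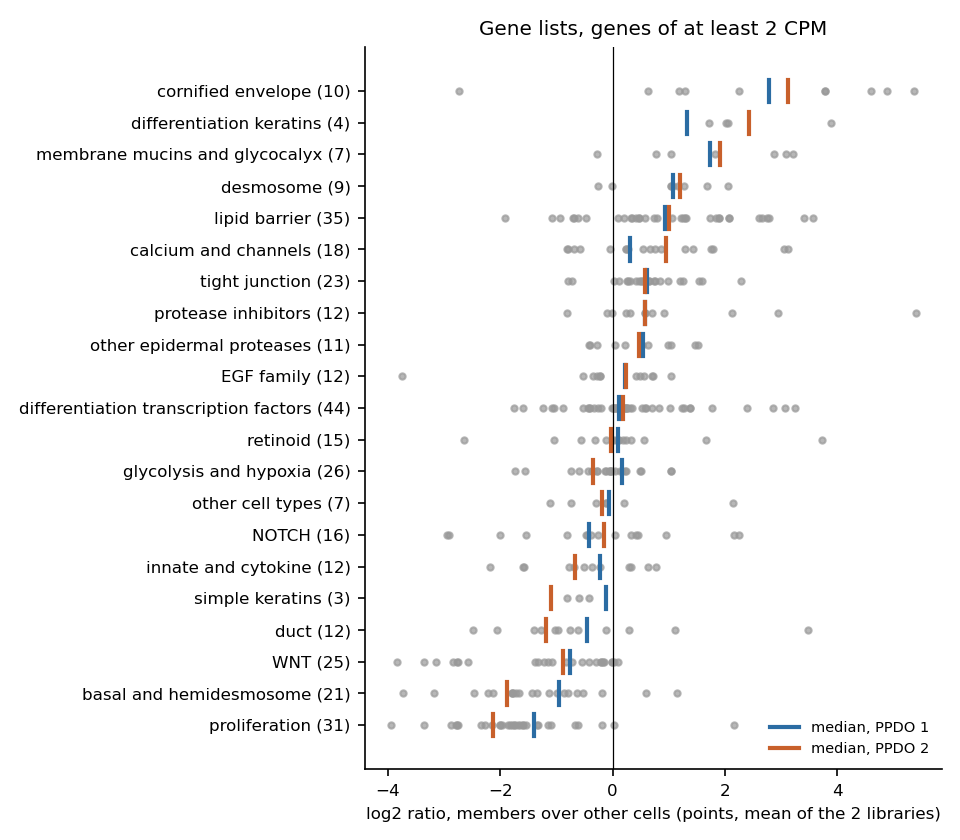
Log2 ratio of high-score over other cells for the genes of each list that passed the filter (grey points, mean of PPDO 1 and PPDO 2, number of genes in brackets), with the list median in PPDO 1 (blue) and PPDO 2 (orange). Proliferation and basal genes have the lowest medians, and the kallikreins are left out because 2 of the 4 passed the filter through high-score or late cells.

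Among 44 transcription factors of epithelial differentiation 9 were higher and 4 lower, the latter a share near the 8.49% of all genes (3.01% were higher). Against cells ranked 4 to 20%, 5 were higher and 1 lower, and for the highest 8% of scores 7 and 1. GRHL1, a regulator of desmosomal genes in epidermis, was at 65.3 against 9.71 CPM in PPDO 1 and at 97.2 against 11.6 CPM in PPDO 2. ELF5, an ETS factor of keratinocyte and gland differentiation, was at 160 against 18.3 CPM and at 172 against 20.7 CPM. SOX21, which passed the filter only through the cells in which it is high, was at 20.3 against 1.90 CPM and at 36.4 against 3.02 CPM. The other higher factors were GRHL3, PRDM1, CEBPA, GATA3, FOXN1 and BARX2, and the lower ones RORA, ATF3, BNC1 and ID3. KLF4 was at 99.4 against 97.3 CPM and 123 against 101 CPM. The remaining 31 factors passed a factor of 2 in neither direction, and the list medians were 0.11 and 0.18.

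Junction and channel genes were partly higher. Of 23 genes of tight junctions and cell adhesion the tight junction genes CLDN1, CLDN4, CLDN23 and TJP3 and the adherens junction cadherin CDH1 were higher, beside 3.01% of all genes, with CLDN4 at 152 against 53.5 CPM and at 146 against 45.1 CPM. Against cells ranked 4 to 20%, 1 gene of this list reached a factor of 2. Of 18 genes of calcium handling and channels 6 were higher, the cation channel TRPV3, the deiminase PADI1, the connexin GJB6, the water channel AQP3 and the sodium channel subunits SCNN1A and SCNN1B. The count was 3 against cells ranked 4 to 20%, and 4 with the highest 2% or 8% of scores taken. SCNN1A was at 18.0 against 2.30 CPM and at 33.3 against 2.45 CPM. Of 7 membrane and glycocalyx genes LYPD3, LYPD5, LY6G6C and SDC1 were higher, with LYPD3 at 165 against 20.02 CPM and at 335 against 37.0 CPM. No gene of these 3 lists was lower in both libraries, and their counts stand beside 3.01% of all genes higher and 8.49% lower.

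Basal genes were lower or passed a factor of 2 in neither direction, except KRT5. Of 21 genes 10 were at least 2 times lower, 10 passed in neither direction and KRT5 was higher, beside 8.49% of all genes lower. With the highest 8% of scores taken 6 were lower. The list medians were -0.95 in PPDO 1 and -1.89 in PPDO 2. KRT15, a keratin of basal cells, was at 520 against 1161 CPM and at 276 against 1490 CPM. IGFBP6 was at 10.3 against 62.0 CPM and at 12.9 against 193 CPM. KRT5, which basal cells are known for, was at 11451 against 5101 CPM and at 15596 against 7219 CPM, and missed the factor of 2 in at least 1 library when the highest 2% or 8% were taken. TP63, the master regulator of stratified epithelium, was at 389 against 562 CPM and at 355 against 600 CPM. The integrin genes ITGA2 and ITGA3 were lower, ITGA3 at 105 against 272 CPM and at 49.0 against 226 CPM, whereas ITGA6 was at 677 against 741 CPM in PPDO 1 and 324 against 884 CPM in PPDO 2.

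The 12 lowest genes were CXCL14, KIRREL1, CDON, SOX6, CAV1, GALNT18, MOB3B, CDH13, TNC, DLK2, EVA1C and LGR6. The chemokine CXCL14 was at 11.13 against 208 CPM in PPDO 1 and at 6.52 against 126 CPM in PPDO 2. The transcription factor SOX6 was at 23.8 against 265 CPM and at 17.8 against 282 CPM. The matrix protein tenascin C (TNC) was at 0.492 against 16.6 CPM and at 0.107 against 5.34 CPM. CXCL14 and SOX6 were already low in the next 4%, at 12.7 and 8.74 CPM for CXCL14 and 49.9 and 38.4 CPM for SOX6.

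WNT genes were lower where they differed, and none was higher. Of 25 genes 12 were at least 2 times lower in both libraries, beside 8.49% of all genes, with list medians of -0.77 and -0.88. LGR6, a receptor of R-spondins, was at 7.78 against 74.2 CPM and at 3.42 against 88.9 CPM, and its relative LGR5 at 3.64 against 26.5 CPM and 1.28 against 12.1 CPM. The target gene AXIN2 was at 11.9 against 27.8 CPM and at 9.73 against 24.1 CPM. The ligand WNT10A was at 4.33 against 41.3 CPM and at 2.46 against 35.9 CPM, and the ligand WNT7B, under a factor of 2, was at 32.5 against 39.2 CPM and at 30.6 against 55.3 CPM. LEF1, ZNRF3, FZD3, LRP5, WNT3A, WNT6, DKK3 and SFRP1 were the other lower genes. CTNNB1, which encodes beta-catenin, was at 119 against 124 CPM and 131 against 129 CPM.

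The NOTCH list held genes in both directions, with 2 of 16 higher and 4 lower, beside 3.01% and 8.49% of all genes. Against cells ranked 4 to 20%, 1 was higher and 3 were lower. The ligands JAG2 and DLL1 were lower, JAG2 at 3.74 against 23.7 CPM in PPDO 1 and at 1.497 against 20.4 CPM in PPDO 2. So were LFNG and MFNG, enzymes that add sugars to NOTCH. The target genes NRARP and HES4 were higher, NRARP at 55.4 against 17.5 CPM and at 65.0 against 9.73 CPM, and HES4 at 52.4 against 12.2 CPM and at 34.1 against 5.84 CPM. The remaining 10 of 16 genes, the ligand JAG1 among them, passed a factor of 2 in neither direction in both libraries, with NOTCH1 at 98.1 against 134 CPM and 96.1 against 138 CPM.

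In the EGF family 1 of 12 genes was lower and none higher, a share near the 8.49% of all genes that were lower. The lower gene was the ERBB ligand NRG1, at 103 against 867 CPM in PPDO 1 and at 39.7 against 876 CPM in PPDO 2. EGFR was at 213 against 155 CPM and at 225 against 157 CPM. Of 12 innate and cytokine genes IL33, CXCL2 and LCN2 were lower, but 1 of 12 was with TMM or median-of-ratios factors, for the highest 8% of scores, or against cells ranked 4 to 20%, beside 8.49% of all genes.

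Proliferation genes were the lowest list against all other cells, with medians of -1.39 and -2.12. Against cells ranked 4 to 20% the basal list was lower, with a mean of the library medians of -1.23 beside -1.18. Of 31 genes 24 were lower in both libraries, beside 8.49% of all genes, and 12 were against cells ranked 4 to 20%. The DNA topoisomerase gene TOP2A was at 2.17 against 23.1 CPM (22 UMIs in the high-score cells) and at 0.962 against 38.3 CPM (9 UMIs). The replication helicase gene MCM3 was at 0.689 against 6.18 CPM and at 0.428 against 7.45 CPM. CDKN2B, an inhibitor of cell cycle kinases that the list also holds, was the only gene of it that was higher, at 125 against 32.3 CPM and at 178 against 33.4 CPM. CDKN1A was at 175 against 210 CPM and 197 against 215 CPM. Of 26 genes of glycolysis and hypoxia, ENO2 and CA9 were lower and none was higher, a share near that of all genes (8.49% lower and 3.01% higher), and with TMM or median-of-ratios factors 2 were higher and 1 lower.

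Levels in 5 ranges of the score differed in shape between genes. KLF4 was between 94.5 and 103 CPM in PPDO 1, and at 97.5, 108, 103, 112 and 138 CPM in PPDO 2. KRT23 was at 29.2 CPM in the cells of PPDO 1 with a score of 0, 107 CPM in scores above 0 up to the highest 8%, 396 CPM in the next 4%, 823 CPM in ranks of 96 to 98% and 1552 CPM in ranks of 98 to 100%, and in PPDO 2 the series was 36.2, 156, 834, 1667 and 2155 CPM. LGR6 was lower on entering the highest 8%, from 80.6 and 63.9 CPM to 6.5004 CPM in PPDO 1 and from 103 and 66.8 CPM to 7.12 CPM in PPDO 2. In the 2 ranges above it was at 9.27 and 5.68 CPM in PPDO 1 and at 4.87 and 1.497 CPM in PPDO 2. TOP2A was lower from the same place on, from 24.6 to 6.90, 3.203 and 0.710 CPM and from 38.3 to 1.44, 1.12 and 0.748 CPM. KRT7 was highest in the middle, at 355, 484, 679, 455 and 237 CPM in PPDO 1 and 353, 484, 512, 207 and 154 CPM in PPDO 2. KRT15 was lower step by step from the second range on, from 1255 to 421 CPM and from 1389 to 129 CPM.

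**Figure D5:**
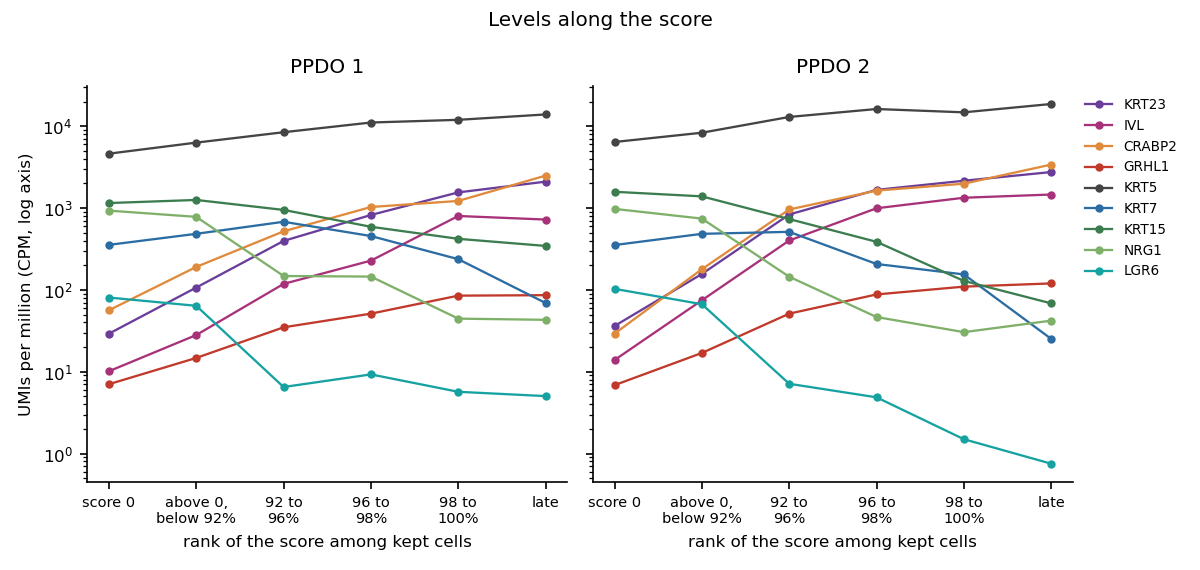
Level (CPM, log axis) of 9 genes in 5 ranges of the score and in the late cells, for PPDO 1 (left) and PPDO 2 (right), 1 point per range. KRT23, IVL, CRABP2, GRHL1 and KRT5 are higher towards high scores, but KRT5 of PPDO 2 is lower at 98 to 100% than at 96 to 98%. LGR6 and NRG1 are low from the highest 8% on, and KRT7 is highest between 92 and 96%.

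The late cells carried the score genes too, at higher levels than the high-score cells for 5 of the 6 in both libraries and for KLK7 in PPDO 1 only (858 against 349 CPM, and 1877 against 1888 CPM in PPDO 2). Compared with them, the high-score cells had 336 genes at least 2 times higher and 10 at least 2 times lower in both libraries, 2.8% and 0.0832% of 12019 genes, where both groups were chosen by scores. Of the 362 genes higher in the high-score cells than in other cells, 146 were higher still in the late cells of both libraries, by any amount. Of the 1020 lower genes 694 were lower still, by any amount. The same shares over all genes were not counted, so no trend is read from these counts. SPINK5 was at 526 and 641 CPM in the late cells and KRT23 at 2101 and 2753 CPM. KLK10 was at 154 CPM in the late cells against 36.4 CPM in the high-score cells of PPDO 1, and at 1142 against 472 CPM in PPDO 2. Genes 2 times higher than in other cells and 2 times lower than in late cells numbered 7, with DMKN, CA2, LIPM, KLK10 and HOMER2 among them and 2 without a symbol, and HOMER2 was named after its values were seen.

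Of the 362 genes higher than in the other cells, 5 were also at least 2 times higher than in the late cells, beside 2.8% of all genes. Of the 1020 genes lower than in the other cells, 100 were at least 2 times higher than in the late cells. The groups were chosen by scores, so nothing is read from these counts. The 5 genes were NMB, CD68, CCSER1, CDA and TFPI2, of which all but CD68 were named after their values were seen. NMB, the gene of the peptide neuromedin B, was at 93.8 CPM in the high-score cells, 10.5 CPM in the other cells and 12.03 CPM in the late cells of PPDO 1, and at 159, 29.6 and 1.503 CPM in PPDO 2. Its RNA sat in few cells, with 8 and 4 cells holding 50% of its UMIs. CDA, cytidine deaminase, was at 1631, 432 and 612 CPM and at 1279, 560 and 564 CPM. For CDA the next 4% reached 1221 and 1360 CPM, and for TFPI2, a Kunitz protease inhibitor, 28.3 and 41.6 CPM against 45.4 and 41.2 CPM in the high-score cells.

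CD68, a lysosomal glycoprotein used as a macrophage marker, was at 95.1 against 16.5 CPM in PPDO 1 and at 50.7 against 14.4 CPM in PPDO 2, and was found in 172 of 275 and 133 of 241 high-score cells. Summed over 5 immune markers the level was 98.2 against 23.8 CPM and 54.0 against 20.9 CPM. CD68 was nearly all of the sum in the high-score cells and a smaller part of it in the other cells. The remaining markers together were lower in the high-score cells of both libraries. PTPRC, the marker of all leukocytes, had 2 and 3 UMIs in the high-score cells, and 1 of the 5 markers had none. Endothelial markers summed to 23.6 against 22.2 CPM and 16.3 against 18.6 CPM. Stellate markers summed to 0.295 against 0.776 CPM and 0.214 against 1.08 CPM, with 4 of 6 at 0 in the high-score cells.

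Of the markers of the labelled tissue, the channel CFTR was near 0 in these cells, but others were not. Summed over 11 duct markers, CFTR and KRT7 among them, the level was 1046 against 1163 CPM in PPDO 1. In PPDO 2 it was 661 against 1016 CPM. CFTR had 3 UMIs in the high-score cells of PPDO 1 and 2 in those of PPDO 2, or 0.295 and 0.214 CPM, against 1.08 and 0.659 CPM in the other organoid cells and 549 and 167 CPM in the filtered cells of primary pancreas. SOX9, a factor of duct cells, was at 8.96 against 3.06 CPM and at 5.67 against 1.22 CPM, under the filter. Of 12 duct genes that passed it SPP1 and CA2 were higher and BICC1, CLU and SLC26A6 lower, beside 3.01% and 8.49% of all genes, and with the highest 2% of scores taken 1 was higher and 5 lower. SPP1, a secreted phosphoprotein, was at 44.4 against 18.9 CPM and at 39.9 against 19.5 CPM, but at 108 and 96.7 CPM in the next 4%, and its mean log2 ratio was -0.54 against cells ranked 4 to 20%. The carbonic anhydrase CA2 was at 23.5 against 2.23 CPM and at 63.3 against 3.99 CPM. EPCAM, a marker of epithelium, was at 148 and 83.1 CPM in the high-score cells, and the simple keratins are given above.

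The same score found almost no cells in primary pancreas. Of 5761 and 6023 filtered cells of primary pancreas 1 and 2, 1 and 2 passed the limit of PPDO 1. None passed the limit of PPDO 2, which allows shares of up to 0.0521% and 0.0498%. A KLK7 UMI was found in 7 cells of each library (0.122% and 0.116%), a SPINK5 UMI in 0.0521% and 0.780%, and KRT23 was at 1.43 and 2.21 CPM. The median depth there was 10290 and 15340 UMIs, lower than in PPDO. Thinning to 10000 UMIs left out 2801 and 2539 shallower cells, and the SPINK5 share in the rest was 0.0338% and 0.459%. Cells with this combination of genes were therefore rare in these primary libraries at this depth. By the study's methods 1 sample was enriched for ducts and the other had sorted duct and beta cells added. These shares are thus not those of whole pancreas.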

How the data were processed

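The authors sorted live cells, prepared 10x Chromium libraries and counted molecules with Cell Ranger 7.1.0, as named in the submitters' processing notes and the study's methods. The count matrices deposited by the authors give whole UMI counts for every feature and barcode without normalization, and the deposited barcode and feature tables hold names only (unit: other). The study's later correction for free RNA is not part of these counts.

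Isoform and extension features were summed to 30282 gene identifiers, of which 16699 had a symbol in the files and 722 took one from a gene name table. Symbols shared by several identifiers were not used. PPDO barcodes with 1000 to 9000 features and at most 3% mitochondrial UMIs were kept, and primary barcodes with at least 400 and under 9000 features and under 8%. Groups and replicate numbers came from the sample titles. UMIs were summed per library and group, scaled to CPM, and compared as log2 ratios with 0.5 CPM added. Genes with at least 2 CPM over the filtered cells of both libraries were compared, without the 11 rule genes, and a gene counted as higher or lower when its ratio reached 2 in each library.

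The cells, gene lists and rules were chosen with earlier results of these data known. Genes named are those of the lists and the 12 largest ratios in each direction with a unique symbol, and any others were named after their values were seen. Doublet scores were computed with Scanpy 1.11.5, principal components with NumPy 2.4.6 and neighbours with scikit-learn 1.9.0. Alternative scaling factors came from edgeR 4.0.16 and DESeq2 1.42.0. Total UMIs per PPDO library were 366263520 and 316018482. The high-score cells held 10155902 and 9352370 of them, so a gene at 1 CPM in the high-score cells rests on about 10 UMIs. Free RNA, not corrected here, can add UMIs of abundant genes to any cell. Sequences are not shown here.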

Additional observations from a re-analysis of the deposited data

Results flagged for a closer look

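In PPDO 1, 16 UMIs were assigned to the 8 transgene features of the annotation, in 15 barcodes, above the 3 counts that a count of 0 allows, and PPDO 2 had 0. None of the 15 barcodes was a high-score cell.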

How the results depend on the processing

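The count of 362 higher genes was within 1.5 times under 15 of 17 alternatives that kept both libraries, and the count of 1020 lower genes under 14. The exceptions were cells ranked 4 to 20% as the comparison (136 higher and 543 lower), a filter of 10 CPM (215 and 532, with fewer genes compared) and a pseudocount of 5 CPM (389 lower). With 1 library left out, the counts were 426 to 577 higher and 1249 to 1874 lower, since a gene then had to pass in 1 library only.

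Against cells ranked 4 to 20%, lipid barrier genes had 11 higher and 1 lower, WNT genes 9 lower, basal genes 10 lower and none higher, and proliferation genes 1 higher and 12 lower.

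The mean log2 ratio of KRT23 was 4.19 and kept its direction throughout. It was 4.11 for the highest 8%, 4.30 with scaled score genes, 4.42 with late cells kept, 4.14 with late cells removed first or with cells chosen on a random part of the UMIs, 3.77 with late cells among the other cells, 2.44 against cells ranked 4 to 20%, 4.37 with TMM factors, 4.39 with median-of-ratios factors, 4.12 with 5 CPM added, and 4.16 to 4.22 with 1 library. The cause of these shifts was not tested. A limit common to both libraries gave 791 or 327 cells in place of 516. Of the genes counted as higher or lower, KRT4 turned to -0.15 for the highest 2% and SPP1 to -0.54 against cells ranked 4 to 20%. Sign changes of other genes were not listed. Over all alternatives, 1307 gene ratios moved by at least the standard deviation of the 2 libraries and 5208 did not. Some list medians changed sign, such as simple keratins from -0.60 to 0.19 for the highest 8%. The median of glycolysis and hypoxia genes went from -0.10 to 0.08 with TMM factors. When cells were chosen on a random part of the UMIs and read in the rest, 328 of the 362 higher (90.6%) and 885 of the 1020 lower genes (86.8%) were found again. The share of neighbours that were high-score cells was 46.7% to 47.2% under its 2 alternatives.

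Each ratio was taken between cells of the same library, and no test, paired or unpaired, was made. The 2 libraries limit every comparison, and genes under about 10 UMIs in the high-score cells, such as TOP2A in PPDO 2, are known only as low.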
